A study of Mus musculus with 48 samples.

Results

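The meibomian glands of male mice without aromatase were compared with those of wild type males. They were taken as the arrays labelled as meibomian and male, and they make up 6 of the 24 Affymetrix arrays and 12 of all 48 arrays of the study. The knockout males were homozygous for the aromatase deletion, the wild type males were age-matched controls, and each group held 3 pools of glands from 5 to 8 mice. The ages, the strain and the way the deletion was made are not given in the sources used here. The study also holds female mice and lacrimal glands of the same genotypes, and each RNA preparation was measured on array types of Affymetrix and of CodeLink. The CodeLink arrays therefore repeat the measurement with other probes and add no mice.

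Aromatase is the enzyme that converts androgens to estrogens, so its loss removes estrogen synthesis while androgen synthesis remains. Meibomian glands are large sebaceous glands of the eyelid that release the lipid layer of the tear film, and their cells carry androgen receptors. The comparison addresses how the loss of aromatase in males bears on gene expression in this gland. The aromatase gene itself has no probe assigned to it alone on either array type, so the deletion was not checked here at the RNA level.

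Values are given on a log2 scale relative to the median gene of the same array. The pools carried the transcripts of a lipid-secreting gland. Scd1, a fatty acid desaturase, averaged 6.30 in wild type and 6.30 in knockout males, and Elovl4, an elongase of very long fatty acids, averaged 5.31 and 5.59. The pools also held other eyelid tissue. The skeletal muscle actin Acta1 averaged 5.08 in wild type and 5.03 in knockout males, and the hair root sheath keratin Krt71 averaged 4.42 and 4.65. The Y-linked Eif2s3y was at 2.20 or higher in every male array of both types, as the labels require. In such whole tissue, fewer cells of a type and less RNA per cell cannot be told apart. Median Affymetrix signals ran from 55.9 to 84.05 across the male pools. Knockout pool 3 correlated on Affymetrix more closely with the wild type pools (mean r across genes 0.985) than with its own group (0.981). On CodeLink this held for knockout pool 1 (0.992 against 0.989) and knockout pool 3 (0.991 against 0.989).

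No gene passed an adjusted p of 0.05 between male knockout and wild type glands on Affymetrix, which is 0% of the 7436 genes tested (limma, Benjamini-Hochberg). The smallest adjusted p was 0.105, and 1227 genes had an unadjusted p under 0.05, of which 741 were higher and 486 lower in the knockout. These are 9.97% and 6.54% of the genes tested. The 3 knockout pools lay above all 3 wild type pools for 9.92% of genes and below them for 7.64%. Without knockout pool 3, 116 genes (1.56%) passed, 59 of them higher. That knockout pool was the closest to wild type on Affymetrix, so leaving it out favours calls. With 1 male pool left out at a time, the count ran from 0 to 116. Only 9 genes differed by a log2 value of 1 or more, and the median standard error of a difference was 0.139. On CodeLink 1 gene, Cryab, passed, which is 0.0152% of 6573 genes, and 459 genes had an unadjusted p under 0.05, 3.13% of the genes tested being higher and 3.85% lower. Without overlap, 6.17% lay above and 7.76% below. With quantile normalization in place of median centring the Affymetrix split turned from 60.4% to 46.7% higher. In sign alone, 58% of all genes tested were higher on Affymetrix and 53.8% on CodeLink. Under quantile normalization these shares were 50.7% and 52.2%.

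The same RNA gave like differences on both array types. Of 4619 genes tested on both, 75.1% had the same sign, and of the 757 genes with an unadjusted p under 0.05 on Affymetrix that CodeLink measured, 690 did. Differences of the same sign with an unadjusted p under 0.05 on both types were found for 145 genes, 58 of them higher in the knockout, against 1 gene of opposite sign. The groups did not overlap on either type for 1.58% of genes above and 2.67% below. These shares describe repeat measurements of the same pools and do not speak to other mice.

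**Figure D1:**
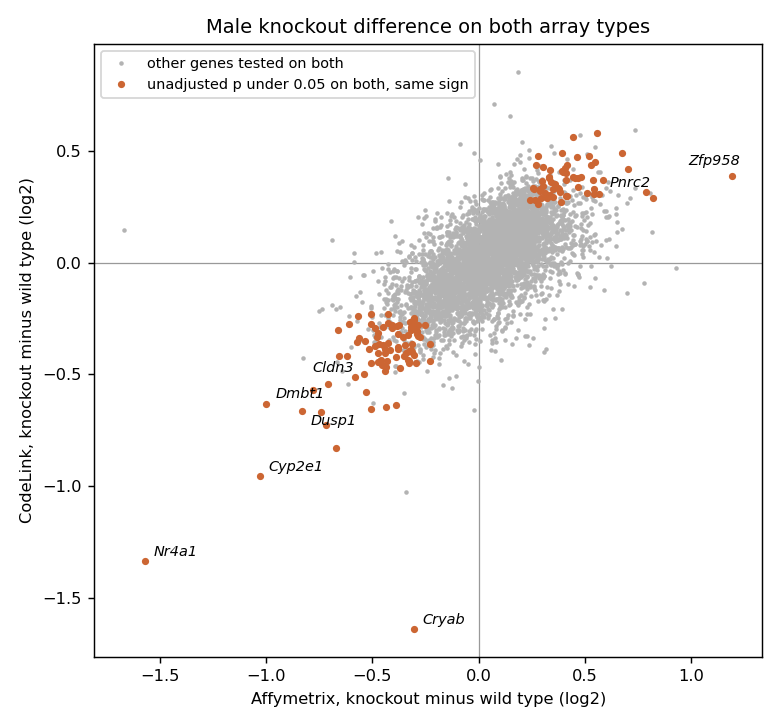
Each point is a gene tested on both array types, with the knockout minus wild type log2 difference in male meibomian glands on Affymetrix (x axis) and on CodeLink (y axis). Orange points mark the 145 genes with an unadjusted p under 0.05 on both and the same sign, and Cryab lies far below the rest on CodeLink alone.

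The largest log2 difference among all 12394 Affymetrix genes lay outside the main test. Defb8, a beta-defensin of the family of secreted antimicrobial peptides, had Affymetrix signals of 27.8, 55.7 and 21.4 in the wild type male pools and 659.4, 299.6 and 570.9 in the knockout male pools. The lowest knockout pool was far above the highest wild type pool. Female glands had signals of 0.4 to 23.2 in wild type and 2.4 to 12.3 in knockout pools, so the knockout males stood apart from the other 3 groups. The mean of Defb8 over the gland ranked 8385th of 12394 genes, and the filter on dim genes removed it. With all 12394 genes tested, Defb8 was higher in knockout males by 3.83 ± 0.51 (SE, n = 3 and 3), a 14.2-fold difference with an adjusted p of 0.00828 (limma). The difference between the female and the male effect was -3.78 with an adjusted p of 0.255. CodeLink values of Defb8 were not analysed here.

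Only 3 genes passed in that test of all genes, 0.0242% of them, and all were higher in the knockout. Serpinb6c, a serine protease inhibitor of the ov-serpin family, had Affymetrix signals of 31.9, 26.5 and 15.4 in wild type and 79.0, 61.3 and 80.9 in knockout males. Its difference was 1.57 ± 0.25 (adjusted p = 0.0364, limma). The CodeLink values were 7.65, 7.54 and 7.04 in wild type and 9.53, 9.81 and 9.14 in knockout males, without overlap. Female pools of both genotypes lay at 10.3 to 24.8 on Affymetrix. The third gene was Trim59, a tripartite motif protein, with log2 levels of 1.26, 1.24 and 1.25 in wild type and 1.84, 1.91 and 1.95 in knockout males. Its difference of 0.65 ± 0.11 had an adjusted p of 0.0427 among all genes and 0.105 in the main test. On CodeLink Trim59 differed by 0.14 ± 0.22, less than the spread between pools.

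**Figure D2:**
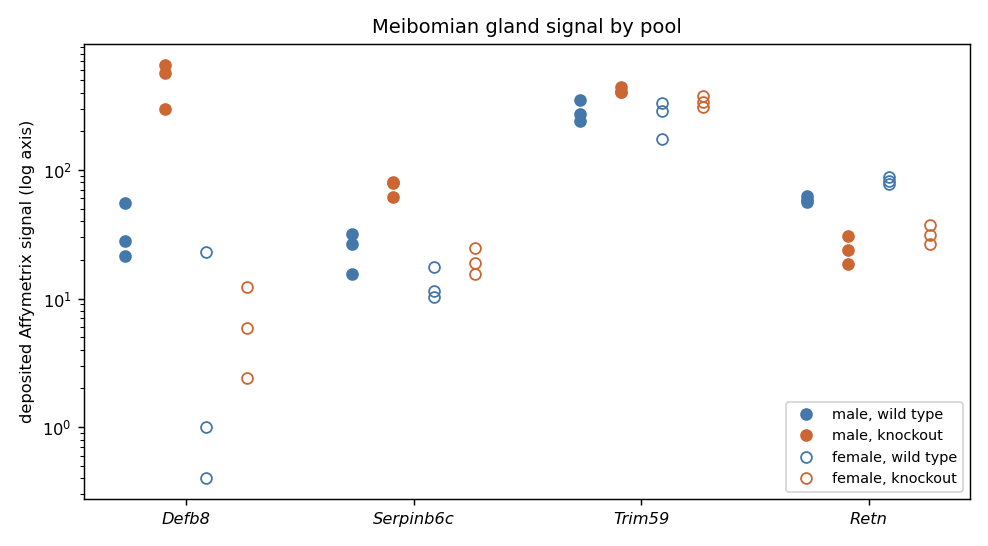
Deposited Affymetrix signals (log axis) of 4 genes in each meibomian pool, with wild type in blue, knockout in orange, males as filled and females as open circles. Knockout males exceed all other pools for Defb8 and Serpinb6c, while Retn is lower in knockout pools of both sexes.

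Another beta-defensin, Defb7, was measured on CodeLink at 3.14, 2.97 and 3.46 in wild type and 5.18, 5.41 and 5.43 in knockout males. The groups did not overlap, and the difference of 0.71 ± 0.16 had an adjusted p of 0.610. Its Affymetrix signals of 0.5 to 13.1 lay near the bottom of the scale and overlapped. Both defensins were looked at after their values were seen.

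Of 7 adipocyte genes tested on Affymetrix 4 were higher and 3 lower, 1 of them with an unadjusted p under 0.05 (6.54% of all genes), with a median of 0.02. On CodeLink 3 of 8 were higher and 5 lower, 1 of the latter at that threshold (3.85% of all genes). The genes at that threshold were Adipoq on Affymetrix and Retn on CodeLink. Retn, the adipokine resistin, had Affymetrix signals of 58.3, 56.5 and 62.8 in wild type and 18.5, 30.4 and 23.7 in knockout males, and the difference of -1.07 ± 0.26 had an adjusted p of 0.176 among all genes. CodeLink gave 4.87, 3.45 and 4.06 against 1.27, 2.97 and 1.45, a difference of -1.06 ± 0.23 (adjusted p = 0.602 among all genes, limma). Without knockout pool 2 the CodeLink difference of -1.40 ± 0.16 passed (adjusted p = 0.00611, limma). That pool was the nearest to wild type for Retn on CodeLink, so leaving it out favours the call. The female pools were at 78.4 to 88.1 in wild type and at 26.7 to 37.6 in knockout glands on Affymetrix. Adipoq, the adipokine adiponectin, was at 0.98, 0.71 and 1.37 in wild type and -0.13, 0.59 and 0.60 in knockout males, a difference of -0.67 ± 0.21 (adjusted p = 0.159, limma). The other adipocyte genes tested differed little, with Fabp4, a fatty acid carrier, at -0.01 ± 0.15 and Lpl, the lipoprotein lipase, at 0.07 ± 0.12.

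Immediate early genes, whose transcripts appear within minutes of a stimulus and fade again, were lower in the knockout pools. Of 22 members tested on Affymetrix, 18 were lower, 11 had an unadjusted p under 0.05 and all 11 of these were lower, against 6.54% of all genes. None passed the adjusted threshold. The median difference of the list was -0.42, while that of all genes was 0.05. On CodeLink 15 of 17 members were lower, 6 of them with an unadjusted p under 0.05 (3.85% of all genes), and the median was -0.29. In females the list medians were -0.05 and -0.03.

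On Affymetrix 7 of the 22 members lay lower in the knockout without overlap, against 7.64% of all genes. The upstream sequences of 3 of these members are shown. They are the 250 bases before the start of the gene, from RefSeq on GRCm38.p6, and a TGACG on either strand or a CArG box is in capitals. The first is Fos on the plus strand at chr12:85473640-85473889, the second Dusp1 on the minus strand at chr17:26508473-26508722 and the third Zfp36 on the minus strand at chr7:28379229-28379478.
Fos: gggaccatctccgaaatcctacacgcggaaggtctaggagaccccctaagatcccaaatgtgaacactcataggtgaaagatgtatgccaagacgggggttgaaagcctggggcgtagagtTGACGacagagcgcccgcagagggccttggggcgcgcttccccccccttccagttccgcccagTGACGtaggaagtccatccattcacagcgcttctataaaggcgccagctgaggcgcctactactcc
Dusp1: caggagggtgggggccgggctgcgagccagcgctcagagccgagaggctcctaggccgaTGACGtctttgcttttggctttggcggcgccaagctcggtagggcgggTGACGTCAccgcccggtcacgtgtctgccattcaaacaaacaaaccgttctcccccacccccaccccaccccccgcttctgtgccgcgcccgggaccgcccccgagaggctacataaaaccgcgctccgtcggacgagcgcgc
Zfp36: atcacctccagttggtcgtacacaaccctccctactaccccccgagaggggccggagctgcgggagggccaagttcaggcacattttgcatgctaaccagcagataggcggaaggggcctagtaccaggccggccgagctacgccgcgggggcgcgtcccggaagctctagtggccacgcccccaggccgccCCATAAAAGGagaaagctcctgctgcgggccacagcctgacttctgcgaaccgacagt
TGACG is the core of the cyclic AMP response element, and the CArG box is the motif that serum response factor recognises. In Dusp1 a pair of the 3 matches overlaps on opposite strands. TGACG was present in 10 of 21 list members with an upstream sequence (47.6%) and in 17.9% of 27025 genes, and the CArG box in 1 of the 21 members and in 1.4% of genes. The 3 members shown all hold a match, while Gadd45b and Gadd45g, also lower without overlap, hold neither motif. A match describes these letters and shows no binding.

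Fos, a subunit of the transcription factor AP-1, was at 3.84, 2.78 and 2.04 in the wild type pools and at 1.29, 1.44 and 1.29 in the knockout pools. The difference was -1.55 ± 0.36 (unadjusted p = 0.000446, limma). Wild type pool 1 was highest and the knockout pools lay close together. Dusp1, a phosphatase that inactivates MAP kinases, was at 4.19, 3.57 and 3.08 in wild type and at 2.75, 3.02 and 2.57 in knockout males, and its CodeLink difference of -0.66 ± 0.21 was likewise without overlap. Zfp36, which promotes the decay of cytokine messenger RNAs, was at 2.81, 2.47 and 2.26 in wild type and at 2.06, 2.00 and 1.97 in knockout males. CodeLink gave Zfp36 a difference of -0.66 ± 0.14.

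Gadd45b and Gadd45g, stress-induced regulators of growth arrest, differed by -0.66 ± 0.18 and -0.49 ± 0.15 on Affymetrix without overlap. Egr1, a zinc finger transcription factor, was at 4.60, 3.80 and 3.43 in wild type and at 3.27, 3.17 and 3.43 in knockout males. Nr4a1, an orphan nuclear receptor, was at 2.61, 0.47 and -0.71 in wild type and at -0.59, -0.60 and -1.15 in knockout males, so that the difference of -1.57 ± 0.54 rests on a wide spread and the groups overlapped. Wild type pool 1 held the highest value of each of these. Without it the list median was -0.26 on Affymetrix with 7 members under an unadjusted p of 0.05, and -0.22 on CodeLink with 2 such members. All of these members were lower. In the same fits 467 of all 7436 Affymetrix genes and 204 of all 6573 CodeLink genes were lower at that threshold.

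**Figure D3:**
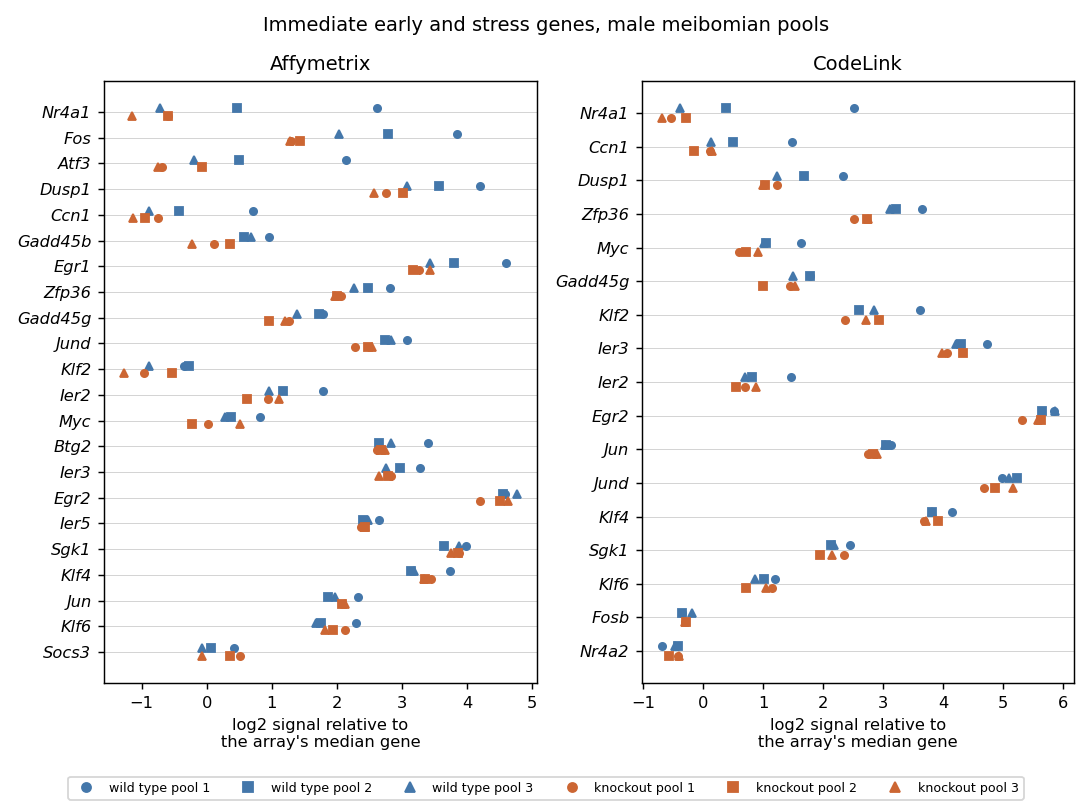
Log2 signal of immediate early and stress genes relative to the median gene of the array, in 3 wild type (blue) and 3 knockout (orange) male pools on Affymetrix (left) and CodeLink (right). Knockout points lie to the left for most members, and wild type pool 1 (circles) is the highest value for many of them.

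Genes of the circadian clock were also mostly lower on Affymetrix. Of 17 tested there, 12 were lower and 5 had an unadjusted p under 0.05, all lower (6.54% of all genes), with a list median of -0.12. Per1, a core repressor of the clock, was at 0.70, 0.06 and 0.03 in wild type and at -0.73, -0.34 and -0.24 in knockout males. The time of day at which the glands were taken is not given in the sources used here. On CodeLink 4 of 8 clock genes were higher and 4 lower, with a median of 0.02. With an unadjusted p under 0.05 there, 1 was higher (3.13% of all genes) and none lower. Without wild type pool 1 the Affymetrix median was -0.28.

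Genes of the conjunctival lining and its mucus-secreting goblet cells were mostly lower. Of 16 tested on Affymetrix, 13 were lower, 5 with an unadjusted p under 0.05, and 1 was higher at that threshold. Over all genes these shares were 6.54% lower and 9.97% higher. The median was -0.18. On CodeLink 11 of 16 were lower, 2 of them with an unadjusted p under 0.05 (3.85% of all genes), and the median was -0.21. In females the list medians were -0.22 on Affymetrix and -0.12 on CodeLink, while those of all genes were -0.09 and -0.05. Cldn3, a tight junction claudin, was at 0.97, 0.92 and 1.41 in wild type and at 0.21, 0.10 and 0.51 in knockout males, a difference of -0.83 ± 0.15 (adjusted p = 0.114, limma). CodeLink gave Cldn3 a smaller difference of -0.43 ± 0.26, also without overlap. Its relatives followed, with Cldn7 at -0.51 ± 0.14 on Affymetrix and -0.45 ± 0.14 on CodeLink, and Cldn4 at -0.56 ± 0.13 on CodeLink, each without overlap. The mucins Muc4, Muc1 and Muc5ac differed by -0.60 ± 0.16, -0.41 ± 0.12 and -0.46 ± 0.16. Tff1, a trefoil peptide secreted with mucus, went the other way at 0.51 ± 0.19. Dmbt1, a secreted scavenger receptor protein of mucosal surfaces outside that list, was at 1.79, 1.43 and 2.45 in wild type and at 0.83, 0.37 and 1.48 in knockout males, with an adjusted p of 0.151 (limma) and a difference of -0.63 ± 0.20 on CodeLink. The share of conjunctiva in each pool was not measured, and its part in these differences was not tested. Without knockout pool 1 the list median was -0.09, and without knockout pool 3 it was -0.30.

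Macrophage and dendritic cell genes were mostly higher. Of 24 tested on Affymetrix 20 were higher, while 58% of all genes were higher. Of the 20, 6 had an unadjusted p under 0.05 (9.97% of all genes), and the list median was 0.30. On CodeLink 14 of 17 were higher (53.8% of all genes) with a median of 0.17, none of them at that threshold. Itgam, an integrin of myeloid cells, was lower there by -0.24 ± 0.09. The complement subunit C1qa was at -1.17, -1.06 and -0.89 in wild type and at -0.61, -0.63 and -0.63 in knockout males. Mrc1, the macrophage mannose receptor, differed by 0.36 ± 0.15 and Cd163, the haemoglobin scavenger receptor, by 0.40 ± 0.18. The list median was 0.34 in females. The count rested on single pools. It was 0 without wild type pool 1, 1 without knockout pool 2 and 15 without wild type pool 3, with medians of 0.16, 0.14 and 0.46. Of all 7436 genes, 870, 354 and 479 were higher at that threshold in the same fits.

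Interferon-induced genes had a median of 0.23, with 12 of 14 higher (58% of all genes), and this came from 1 pool. Ifit3, an antiviral protein, was at 0.97, 2.37 and 1.46 in the knockout pools and at 0.99, 0.84 and 1.32 in wild type. Without knockout pool 2 the median was -0.02 and 6 of 14 were higher.

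Of 8 melanocyte genes tested on Affymetrix 3 were higher with an unadjusted p under 0.05 (9.97% of all genes) and none lower. On CodeLink 1 of 5 was higher and 1 lower at that threshold, against 3.13% and 3.85% of all genes. The lower gene was Kit, a receptor kinase that mast cells also carry, at -0.39 ± 0.16. Tyrp1, an enzyme of melanin synthesis, was at 1.58, 1.34 and 1.19 in wild type and at 2.08, 2.15 and 1.90 in knockout males, a difference of 0.67 ± 0.13 (adjusted p = 0.119, limma). CodeLink gave Tyrp1 a difference of 0.49 ± 0.19, also without overlap. Tyr, the tyrosinase that starts melanin synthesis, differed by 0.57 ± 0.20 on Affymetrix. The female difference of Tyrp1 was -0.17.

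Of 33 cell cycle genes 24 were higher on Affymetrix, while 58% of all genes were higher. With an unadjusted p under 0.05, 5 were higher (9.97% of all genes) and none lower, and the list median was 0.09. On CodeLink 17 of 27 were higher (53.8% of all genes), 5 of them at that threshold (3.13% of all genes). Nusap1, a spindle-associated protein, differed by 0.48 ± 0.15 on Affymetrix and 0.38 ± 0.16 on CodeLink, and Ttk, a spindle checkpoint kinase, by 0.38 ± 0.15 and 0.33 ± 0.13. Nuf2, a kinetochore protein, differed by 0.79 ± 0.22 and 0.32 ± 0.12. Without knockout pool 3 the Affymetrix median of the cell cycle genes was 0.01. Of 23 keratinization genes 14 were higher and 9 lower on Affymetrix, while 58% of all genes were higher. At that threshold 5 were higher and none lower, against 9.97% and 6.54% of all genes, and the list median was 0.15. On CodeLink 11 of 19 were higher (53.8% of all genes), 1 of them at that threshold (3.13% of all genes). The CodeLink median of 0.06 became -0.05 without knockout pool 3. Rptn, the cornified envelope protein repetin, was at 3.10, 2.68 and 2.56 in wild type and at 3.37, 3.32 and 2.98 in knockout males, and Klk7, a protease of skin shedding, differed by 0.34 ± 0.12.

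**Figure D4:**
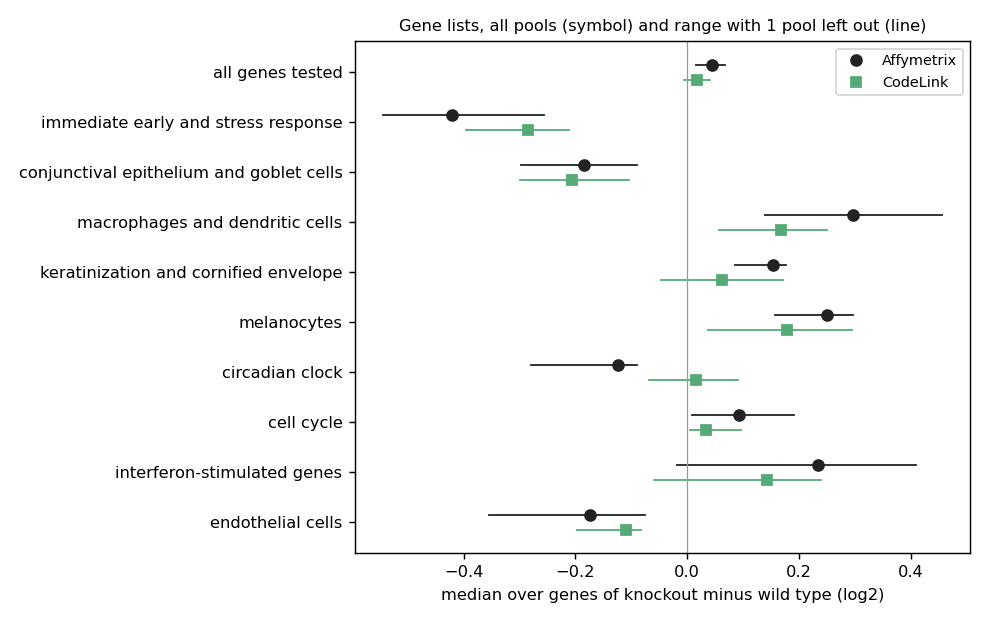
Median knockout minus wild type log2 difference over the genes of each list in male meibomian glands (circle, Affymetrix; square, CodeLink), with lines for the range when 1 pool is left out. The immediate early list lies lowest on both array types, and the line of interferon-stimulated genes crosses 0.

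Of 24 fatty acid synthesis genes tested on Affymetrix 13 were higher and 11 lower, 1 and 2 of them with an unadjusted p under 0.05, and the median difference was 0.01. Of 16 genes of wax ester, triglyceride and sterol ester synthesis 6 were higher and 10 lower, 1 and 4 of them at that threshold, against 9.97% and 6.54% of all genes, with a median of -0.05. On CodeLink 9 of 12 of these were lower, none at that threshold. Of 19 cholesterol synthesis genes 8 were higher and 11 lower, 1 of each at that threshold, with a median of -0.05. Fasn, the fatty acid synthase, was at 3.76, 3.78 and 3.85 in wild type and at 3.26, 3.14 and 3.93 in knockout males, where pool 3 stood with the wild type pools. Its difference was -0.35 ± 0.15 on Affymetrix and -0.42 ± 0.16 on CodeLink. Pnpla2, the lipase that starts triglyceride breakdown, differed by -0.50 ± 0.13 without overlap. Acsl4, which activates arachidonic acid, differed by 0.48 ± 0.15 and Far1, a fatty acyl reductase that makes the alcohols of wax esters, by 0.34 ± 0.12.

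Steroid genes were little different as a group, with a median of -0.01 over 17 tested on Affymetrix. Akr1c18, which inactivates progesterone, was at 2.48, 2.49 and 2.33 in wild type and at 1.68, 2.15 and 1.71 in knockout males. The difference was -0.58 ± 0.16 on Affymetrix and -0.51 ± 0.18 on CodeLink, and the female difference was -1.48. Nr3c1, the glucocorticoid receptor, differed by 0.35 ± 0.13 on Affymetrix, and Hsd11b1, which regenerates active glucocorticoid, by 0.38 ± 0.12 on CodeLink, each without overlap. The estrogen receptor gene Esr1 had Affymetrix signals of 0.6 to 4.9 in wild type and 1.2 to 9.0 in knockout males, near the bottom of the scale. Genes known to respond to androgens in other mouse tissues had a median of -0.01 over 11 tested. Genes known to respond to estrogens elsewhere had a median of -0.13 over 19 tested, 5 of them lower and 2 higher at an unadjusted p under 0.05, against 6.54% and 9.97% of all genes. The lower ones were Fos, Ccnd1, Muc1, Wnt4 and Aqp5. Fos is also a member of the immediate early list above, and Muc1 of the conjunctival list. Ccnd1, the cell cycle entry protein cyclin D1, was at 2.78, 2.61 and 2.95 in wild type and at 2.45, 2.20 and 2.33 in knockout males. Igf1, a growth factor, was at 1.35, 1.34 and 1.34 in wild type and at 1.56, 1.84 and 1.58 in knockout males.

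Among the genes with an unadjusted p under 0.01 and the same sign on CodeLink, 127 were higher and 95 lower, and none of them passed the adjusted threshold. Zfp958, a zinc finger protein, had the largest difference upward at 1.19 ± 0.29, with 0.39 ± 0.15 on CodeLink. Pnrc2, a coactivator of nuclear receptors that also acts in messenger RNA decay, was at 2.19, 1.93 and 2.27 in wild type and at 3.40, 2.94 and 2.53 in knockout males. Tank, a regulator of NF-kappaB signalling, differed by 0.70 ± 0.17 and Pon2, a paraoxonase, by 0.65 ± 0.20. The zinc finger genes Zfp758 and Zfp120 differed by 0.80 ± 0.21 and 0.70 ± 0.13, and Slc6a14, an amino acid transporter, by 0.65 ± 0.19. On CodeLink they gave 0.31 ± 0.19, 0.42 ± 0.15 and 0.07 ± 0.12 in that order. The groups overlapped on both types for Slc6a14 and on CodeLink for Zfp758. The remaining genes of the 15 largest upward (Rpl39l, Cenpc1, Serf1, Tbc1d15 and Chm) ran from 0.62 to 0.81.

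Cyp2e1, a cytochrome P450 that oxidises ethanol and ketones, had the largest difference downward of that set. It was at 0.34, -0.21 and 0.20 in wild type and at -1.37, -0.37 and -1.03 in knockout males, a difference of -1.03 ± 0.23 (adjusted p = 0.138, limma). CodeLink gave -0.96 ± 0.24 for the same pools. Reep6, a membrane-shaping protein of the endoplasmic reticulum, was at 3.68, 3.79 and 3.79 in wild type and at 2.65, 2.70 and 3.77 in knockout males, where pool 3 lay at the wild type level. Cx3cl1, the chemokine fractalkine, differed by -0.71 ± 0.15 on Affymetrix and -0.54 ± 0.17 on CodeLink, without overlap on either type. Cyth2, an exchange factor of ARF proteins, and Limk2, a kinase that controls actin, differed by -0.74 ± 0.14 and -0.69 ± 0.15, while their CodeLink values were -0.21 ± 0.13 and -0.19 ± 0.13. The other genes of the 15 largest downward (Bysl, Vars, Tinagl1, Sh3gl1, Acot5 and Apobec3) ran from -0.78 to -0.64.

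Cryab, the small heat shock protein alpha-B crystallin, was the gene that fell on CodeLink. Its CodeLink levels were 3.16, 3.41 and 3.41 in wild type and 1.65, 2.03 and 1.39 in knockout males, a difference of -1.64 ± 0.15 (adjusted p = 0.000595, limma). On Affymetrix Cryab was at 3.65, 3.47 and 3.74 in wild type and at 3.39, 3.28 and 3.27 in knockout males, a difference of -0.31 ± 0.13, and the remaining probe sets gave -0.54 ± 0.13 and -0.34 ± 0.39. The female difference on CodeLink was -1.73. Cryab lies on the chromosome of the aromatase gene, 7 tested genes from it on CodeLink. Of its neighbours Dlat, a subunit of pyruvate dehydrogenase, differed by -0.44 ± 0.10 on Affymetrix and -0.65 ± 0.16 on CodeLink. The female differences of Dlat were -0.70 and -0.65. Other neighbours were higher, among them Hspb2 by 0.31 ± 0.10 and Timm8b by 0.36 ± 0.15 on CodeLink, each without overlap. Mcam, an adhesion protein 39 tested genes from the aromatase gene on CodeLink, differed there by -1.03 ± 0.18 in males and by -1.20 in females. Affymetrix gave Mcam a difference of -0.34 ± 0.18, and the groups overlapped. Among the 200 tested genes nearest to the aromatase gene, 23% on Affymetrix and 13.5% on CodeLink had an unadjusted p under 0.05, against 16.3% and 6.78% of the other genes.

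Single probe sets and smaller fits added a few calls, which were named after their values were seen. With every Affymetrix probe set left by a filter on dim ones tested on its own, 3 of 13614 (0.0220%) passed. These were the one of Defb8 and 1 each of Myh9 and Rnf214. The Defb8 probe set is the same one that was used in the test of all genes. The high knockout male pools raised its mean in the filter, so its pass here repeats that measurement and is no separate support. The Myh9 probe set, for a non-muscle myosin heavy chain, had signals of 969.3, 667.4 and 773.7 in wild type and 287.5, 241.4 and 249.8 in knockout males. The Rnf214 probe set, for a ring finger protein encoded near the aromatase gene, had signals of 137.1, 172.9 and 108.0 against 44.4, 51.2 and 23.1. In a fit of the male arrays alone, Defb8 and Myhas passed on Affymetrix (0.0269%), and Cryab and Mcam on CodeLink (0.0304%). The filter on dim genes was taken over those arrays, where the high knockout pools lifted the mean of Defb8 into the genes tested, so its pass there is no separate support. Myhas, an antisense RNA of the myosin heavy chain genes, had signals of 608.8, 304.0 and 302.1 in wild type and 186.4, 111.2 and 79.6 in knockout males. Its female wild type pools were at 104.6, 82.9 and 535.5, so that only pool 3 of these lay at the level of wild type males.

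The knockout effect was set against that in females. No gene passed for the difference between the female and the male effect on Affymetrix (0%, smallest adjusted p 0.211) or on CodeLink (0%), while 1038 and 521 genes had an unadjusted p under 0.05. In females alone 28 genes (0.377%) passed on Affymetrix and 3 (0.0456%) on CodeLink. A gene that passed in females and not in males is therefore not shown to differ between them. Leaving out male knockout pool 1 gave 11 genes for the difference.

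The knockout effect in males differed between the glands for 63 genes (0.847%), and in 57 of these the meibomian effect was the smaller in size. Fgl2, a fibrinogen-like protein of immune regulation, differed by 0.59 ± 0.20 in the meibomian gland and by -1.69 ± 0.20 in the lacrimal gland.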

How the data were processed

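Pools of 5 to 8 mice were hybridised by the authors to Affymetrix and CodeLink arrays. The intensity values were used as deposited. GCOS is named in the submitters' processing notes for the Affymetrix arrays, without a version, and further processing is not given in the sources used here. CodeLink intensity was, per the file headers, a spot mean with a background median beside it, and missing values (801) were left out. The probe annotation named 1 gene for 20393 of 22690 Affymetrix probe sets and for 11377 of 17440 CodeLink spots, and symbols were updated through RefSeq (GRCm38.p6).

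The probe with the highest mean stood for a gene. Values were log2-transformed after adding the 20th percentile of positive values (4.4 and 0.305) and centred on each array's median, so that folds of dim genes are understated. The top 60% of genes by mean over the gland were tested with limma 3.58.1 in R 4.3.3 (lmFit, eBayes with trend) in a fit of the 4 groups of the gland, or of 8 groups for differences between glands, with Benjamini-Hochberg adjustment at 0.05. The code was tested on simulated data. Figures were drawn with matplotlib 3.10.9, and tables were joined with pandas 2.3.3 in Python 3.11.15. Pools are separate mice by the labels, and the number of arrays limits the precision.

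The members, gene lists and alternatives were chosen with earlier results of these data known. Named genes are those with an unadjusted p under 0.01 and the same CodeLink sign, up to 15 a direction by size, since fewer than the rule's number passed, up to 4 members of a list by smallest p, and up to 6 a direction for differences of effects. Other genes were named after their values were seen. No column of per-sample values was left unused. Alternatives changed the pseudocount, normalization, filter, probe choice, variance model, array weights, block and pools.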

Additional observations from a re-analysis of the deposited data

Results flagged for a closer look

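The knockout effect in males differed between the lacrimal and the meibomian gland for 63 genes by the test of that difference (limma interaction, adjusted p under 0.05). The 6 largest positive differences, given as the lacrimal minus the meibomian log2 effect, were those of Nmu, the neuropeptide neuromedin U (7.34), Smr2, a secreted salivary-type protein (4.06), Tspan6, a tetraspanin (3.34), Gp2, a membrane glycoprotein of secretory granules (2.75), Mtm1, a phosphoinositide phosphatase (2.29), and Dpysl3, a cytoskeletal regulator (2.28). Their meibomian effects ran from -0.11 for Nmu to 0.39 for Gp2. The 6 largest negative differences were those of B4galt1, a galactosyltransferase (-3.00), Fgl2 (-2.28), Shisa2 (-2.12), the hair protein Krtap5-1 (-2.11), Dnaja4, a co-chaperone (-1.65), and Cmya5, a muscle protein (-1.64). Their meibomian effects ran from -0.31 for B4galt1 to 0.71 for Krtap5-1.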

How the results depend on the processing

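The Affymetrix count in males was 0 in the main setting and 3 (3 higher) without the filter on dim genes, 3 (1 higher, 2 lower) with every probe set on its own, 2 (1 higher, 1 lower) in the male arrays alone and 1 (lower) in the mean of both array types per pool, an alternative chosen after seeing the data. Leaving out 1 pool gave 0 to 116 genes (0 to 59 higher, 0 to 57 lower). The 116 came without knockout pool 3, and 66 of the 70 that CodeLink also measured had its sign too. The CodeLink count of 1 lower became 2 with every spot on its own and 2 in the male arrays alone, and it was 1 to 2 with 1 pool left out. The difference between the sexes gave 0 to 11 genes (0 to 1 positive, 0 to 10 negative) with 1 pool left out, the highest without male knockout pool 1. The difference between glands had 53 positive genes after quantile normalization (main 34), and 34 to 125 genes (18 to 87 positive, 13 to 43 negative) with 1 pool left out, the highest without lacrimal knockout pool 2 and the lowest without meibomian knockout pool 2. The clock median of -0.12 was -0.0382 in the mean of both types, and -0.279 to -0.0905 with 1 pool left out, while the steroid median of -0.01 ran from -0.124 to 0.0221. The causes of these changes were not tested. Single named genes kept direction and side of the threshold in 476 settings of the male Affymetrix effect and passed in 17 more, and for the gland difference they did so in 231 and lost the call in 5. Some list medians changed sign: those of fatty acid and steroid genes in several settings, and with 1 pool left out the interferon medians (-0.02 on Affymetrix and -0.06 on CodeLink, without knockout pool 2) and the CodeLink medians of clock (-0.07 without wild type pool 1, -0.01 without knockout pool 3) and keratinization genes.

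The replicate block gave 0 genes on Affymetrix and 1 on CodeLink and changed no call in males. The numbers did not link the groups alike on both array types. Same-numbered knockout and wild type pools had correlations of 0.213, -0.131 and 0.189 on Affymetrix, against at most 0.015, 0.078 and 0.119 for other numbers. On CodeLink they were 0.125, -0.2 and -0.078, against at most 0.174, 0.266 and 0.091. A slide block was not run, since the array files give no slides. Signals near the pseudocount limit dim genes such as Esr1 and Defb7.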
